A study of Mus musculus with 2 samples.

Results

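The genes described here are 32 mouse genes of glucose use: 2 glucose transporters, 17 genes of glycolysis and lactate dehydrogenase, 2 lactate transporters, 7 genes of the pentose phosphate pathway, and 4 genes of a side branch or of control (Bpgm, Pdk1, Pdha1 and Hif1a). They were chosen by symbol, with earlier results of these data known, and each matched 1 row of the 28692 genes in both deposited matrices. The study set a knockdown of Cxxc5, a gene of a CXXC zinc finger protein, beside a control in differentiating mouse bone marrow cells. The knockdown group was C57BL/6 bone marrow carrying a retrovirus with a short hairpin RNA (shRNA) against Cxxc5, and the control group was C57BL/6 bone marrow carrying a retrovirus whose shRNA has no mouse target. In both groups, GFP-positive infected LSK cells (no lineage markers, with the surface proteins Sca-1 and Kit), the marrow fraction that holds the blood stem cells, were taken by sorting and grown for 3 days in DMEM with 20% serum, GM-CSF at 10 ng/ml and SCF at 10 ng/ml. Each group is a single 10x Genomics 3′ library of 5 pooled samples, so no difference below has a replicate check, and the age and sex of the mice, the hairpin sequences and any overlap in mice between the pools are not given in the sources used here.

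Glycolysis splits glucose into pyruvate in the cytosol and yields ATP and NADH; lactate dehydrogenase then turns pyruvate into lactate to regenerate NAD+, and monocarboxylate transporters carry lactate across the membrane. The pentose phosphate pathway branches off at glucose 6-phosphate. Its oxidative arm makes NADPH and ribulose 5-phosphate, and its non-oxidative arm passes carbon between sugars and back to glycolysis. Neutrophils are known for relying on glycolysis for energy and on NADPH to feed the oxidative burst. Blood stem cells are known for a glycolytic metabolism in which the oxygen-sensing factor HIF-1α, encoded by Hif1a, is active.

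HIF-1α is known to act on many glycolytic genes through hypoxia response elements, whose core reads ACGTG or GCGTG. RefSeq promoter windows (GRCm38.p6, 250 bases before to 50 after a start) were found for 31 of the 32 genes, all but Slc2a3, and both strands were searched. ACGTG occurred in 16 of the 31 genes, against 21.8% of 27025 genes with such windows. It stood in 11 of 17 glycolysis genes, 2 of 2 lactate transporters and 1 of 7 pentose phosphate genes. A gene was counted if any of its windows held the motif, here and over all genes. In Hk1, Pfkm, Aldoa, Aldoc, Pkm and Ldha, some windows held ACGTG and others did not. Genes with more windows had more room for a match, and the counts were not adjusted for this. Both ACGTG and GCGTG hold the pair CG, and the counts were not adjusted for base composition either. All genes here means every gene with a window, whether or not it was found in these cells, so no enrichment is read from the counts. GCGTG occurred in 20 of 31 genes, against 35.2% of all genes, and in 6 of 7 pentose phosphate genes. The palindrome CACGTG, which holds ACGTG on both strands, occurred in 4 of 31 genes, against 8.09% of all genes. A match describes letters in a window and shows no binding. The windows of the 4 genes with the higher level in the knockdown library described below, and of Taldo1, a pentose phosphate gene whose level differed between cell classes, are printed 5′ to 3′ on the gene's strand. Capitals mark ACGTG or GCGTG on either strand, so that CACGT and CACGC are matches on the other strand.
Slc16a3 (chr11:120948817-120949116, plus strand): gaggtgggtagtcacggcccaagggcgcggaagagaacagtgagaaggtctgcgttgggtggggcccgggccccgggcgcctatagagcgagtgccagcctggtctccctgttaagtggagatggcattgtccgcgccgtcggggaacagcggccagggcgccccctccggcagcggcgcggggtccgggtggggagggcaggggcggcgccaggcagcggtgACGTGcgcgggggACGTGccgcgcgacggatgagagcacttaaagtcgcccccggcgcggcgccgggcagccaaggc
Slc16a1 (chr3:104638414-104638713, plus strand): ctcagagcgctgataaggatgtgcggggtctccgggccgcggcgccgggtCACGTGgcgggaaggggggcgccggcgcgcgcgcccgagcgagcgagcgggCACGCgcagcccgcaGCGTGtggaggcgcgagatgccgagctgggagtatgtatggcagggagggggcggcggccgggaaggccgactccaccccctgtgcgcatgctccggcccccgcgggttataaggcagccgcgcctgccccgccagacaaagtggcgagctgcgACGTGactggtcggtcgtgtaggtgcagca
Pgk1 (chrX:106186850-106187149, plus strand): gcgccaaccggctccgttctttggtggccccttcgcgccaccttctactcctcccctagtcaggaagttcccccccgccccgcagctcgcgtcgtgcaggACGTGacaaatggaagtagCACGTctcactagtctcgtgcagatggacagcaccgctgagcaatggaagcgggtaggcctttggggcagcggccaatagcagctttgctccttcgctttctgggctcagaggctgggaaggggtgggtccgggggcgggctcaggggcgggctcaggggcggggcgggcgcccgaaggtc
Tpi1 (chr6:124814109-124814408, minus strand): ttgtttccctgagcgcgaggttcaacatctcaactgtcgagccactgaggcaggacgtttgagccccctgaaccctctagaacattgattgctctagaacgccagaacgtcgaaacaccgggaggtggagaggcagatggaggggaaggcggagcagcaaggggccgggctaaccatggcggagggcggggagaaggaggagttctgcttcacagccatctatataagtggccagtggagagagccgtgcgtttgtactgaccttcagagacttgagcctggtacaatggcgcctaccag
Taldo1 (chr7:141391910-141392209, plus strand): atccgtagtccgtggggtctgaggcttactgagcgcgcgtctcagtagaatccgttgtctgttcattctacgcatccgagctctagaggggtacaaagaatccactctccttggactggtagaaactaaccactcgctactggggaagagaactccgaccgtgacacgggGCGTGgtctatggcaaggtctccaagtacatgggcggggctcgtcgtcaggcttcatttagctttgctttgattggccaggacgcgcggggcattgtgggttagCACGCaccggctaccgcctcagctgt
The windows of Slc16a3 and Pgk1 each held 2 matches to ACGTG and none to GCGTG. The Slc16a1 window held 3 matches to ACGTG, 2 of them from a CACGTG palindrome, and 2 to GCGTG. The Taldo1 window held 2 matches to GCGTG and none to ACGTG, and the Tpi1 window held neither.

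The knockdown library held 6015 barcodes and 62910229 UMIs (unique molecular identifiers, one per captured RNA molecule), and the control library 2925 barcodes and 49333454 UMIs. After filtering, 6004 knockdown cells with a median of 10599 UMIs and 2912 control cells with a median of 17197 UMIs remained, and 26 barcode sequences occurred in both libraries. A level is given as CPM, the UMIs of a gene per 1000000 UMIs of the cells named, and was compared only within a gene. Cxxc5 itself had 1.16 CPM in knockdown cells and 9.38 CPM in control cells, a log2 ratio of -3.01 (counting interval -3.39 to -2.65). Of the genes of the sorted surface proteins, Kit had 25.2 CPM in knockdown cells and 24.1 CPM in control cells, and Ly6a, which encodes Sca-1, had 7.52 CPM in knockdown cells and 10.1 CPM in control cells. Summed over 9 stem cell markers the level was 93.3 CPM in knockdown cells and 93.8 CPM in control cells, with none of the 9 at 0. Intervals are 95% and cover counting error only. Tpi1 and 12 other of the 32 genes overlap another listed gene, and whether counting used strand is not given in the sources used here.

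Cells were put in classes by the summed UMIs of marker lists per 10000 UMIs of the cell. Neutrophil-high cells, with 9 of 11 neutrophil markers raised, numbered 402 in the knockdown and 292 in the control library. Neutrophil-intermediate cells numbered 915 in the knockdown and 521 in the control library. In them, 4 of 11 neutrophil markers in the knockdown and 3 of 11 in the control library were raised, and 5 of 7 and 6 of 7 granule-protease genes. There were 593 knockdown and 397 control monocyte-like cells (8 of 12 markers raised), 224 knockdown and 110 control mast cell/basophil-like cells (11 of 11), and 79 knockdown and 75 control dendritic-like cells (10 of 11 and 9 of 11). In dendritic-like cells 8 of 12 monocyte markers were also raised in both libraries, so these cells were not set apart by low monocyte markers. The monocyte markers summed to 1147 CPM in knockdown and 1382 CPM in control dendritic-like cells, against 941 and 979 CPM in monocyte-like cells. The class against which the others are set held 3222 knockdown and 1235 control cells. It had at least 100 UMIs of Elane, Prtn3, Mpo, Ctsg, Ms4a3, Prss57 and Nkg7 per 10000 and lay below every other gate; these cells are called granule-protease cells after those genes and not progenitor-like, because no more than 2 of the 7 were raised over other cells. The 7 genes summed to more in neutrophil-intermediate cells, at 31830 CPM in knockdown and 30012 CPM in control cells, against 21532 and 21111 CPM in granule-protease cells. Granule-protease cells made up 53.7% of knockdown and 42.4% of control cells, and neutrophil-high cells 6.70% of knockdown and 10.0% of control cells.

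The cell classes differed in which genes of glucose use they held, in the same way in both libraries for most genes. The class with the highest level was the same in both libraries for 22 of 32 genes, and the class with the lowest level for 23 of 32. Such counts over all genes are not given, so these are not read as particular to the 32 genes. Pentose phosphate transcripts were most abundant in neutrophil-high cells, where the 7 genes summed to 2023 CPM in knockdown cells and 2015 CPM in control cells, against 1453 and 1486 CPM in granule-protease cells. The log2 ratio of these sums was 0.48 (0.44 to 0.52) in the knockdown and 0.44 (0.40 to 0.48) in the control library. The 17 glycolysis genes summed to 6192 CPM in knockdown and 5565 CPM in control neutrophil-high cells, against 7110 and 6568 CPM in granule-protease cells. That log2 ratio was -0.20 (-0.22 to -0.18) in the knockdown and -0.24 (-0.26 to -0.22) in the control library. So in both libraries the share of UMIs from pentose phosphate genes was higher in neutrophil-high than in granule-protease cells, and that from glycolysis genes lower. Neutrophil-intermediate cells had the highest glycolysis sums, at 7236 CPM in knockdown and 6917 CPM in control cells. Their pentose phosphate sums were 1803 and 1924 CPM. Glycolysis sums lay below those of neutrophil-high cells in dendritic-like cells (4729 and 4757 CPM) and mast cell/basophil-like cells (5507 and 5216 CPM).

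The lower glycolysis sum depended on the scaling. Genes that each took over 0.5% of a library's UMIs took 29.0% of UMIs in knockdown and 29.1% in control neutrophil-high cells, against 16.5% and 16.6% in granule-protease cells. Cells also differed in depth, with medians of 7749 UMIs in knockdown and 11567.5 UMIs in control neutrophil-high cells, against 11403 and 19938 UMIs in granule-protease cells; its part was not tested. With these genes left out of the totals, the glycolysis ratio was 0.035 in the knockdown and -0.0037 in the control library, while the pentose phosphate ratio was 0.71 and 0.67. Among single genes measured in the comparison (at least 10 CPM in either class, in both libraries), 4 of 30 were at least 1.5-fold higher in neutrophil-high cells in both libraries and 11 were at least 1.5-fold lower, against 8.46% higher and 48.3% lower among 6763 genes. Without the dominant genes in the totals the counts were 5 higher and 7 lower, against 11.9% higher and 36.1% lower.

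**Figure D1:**
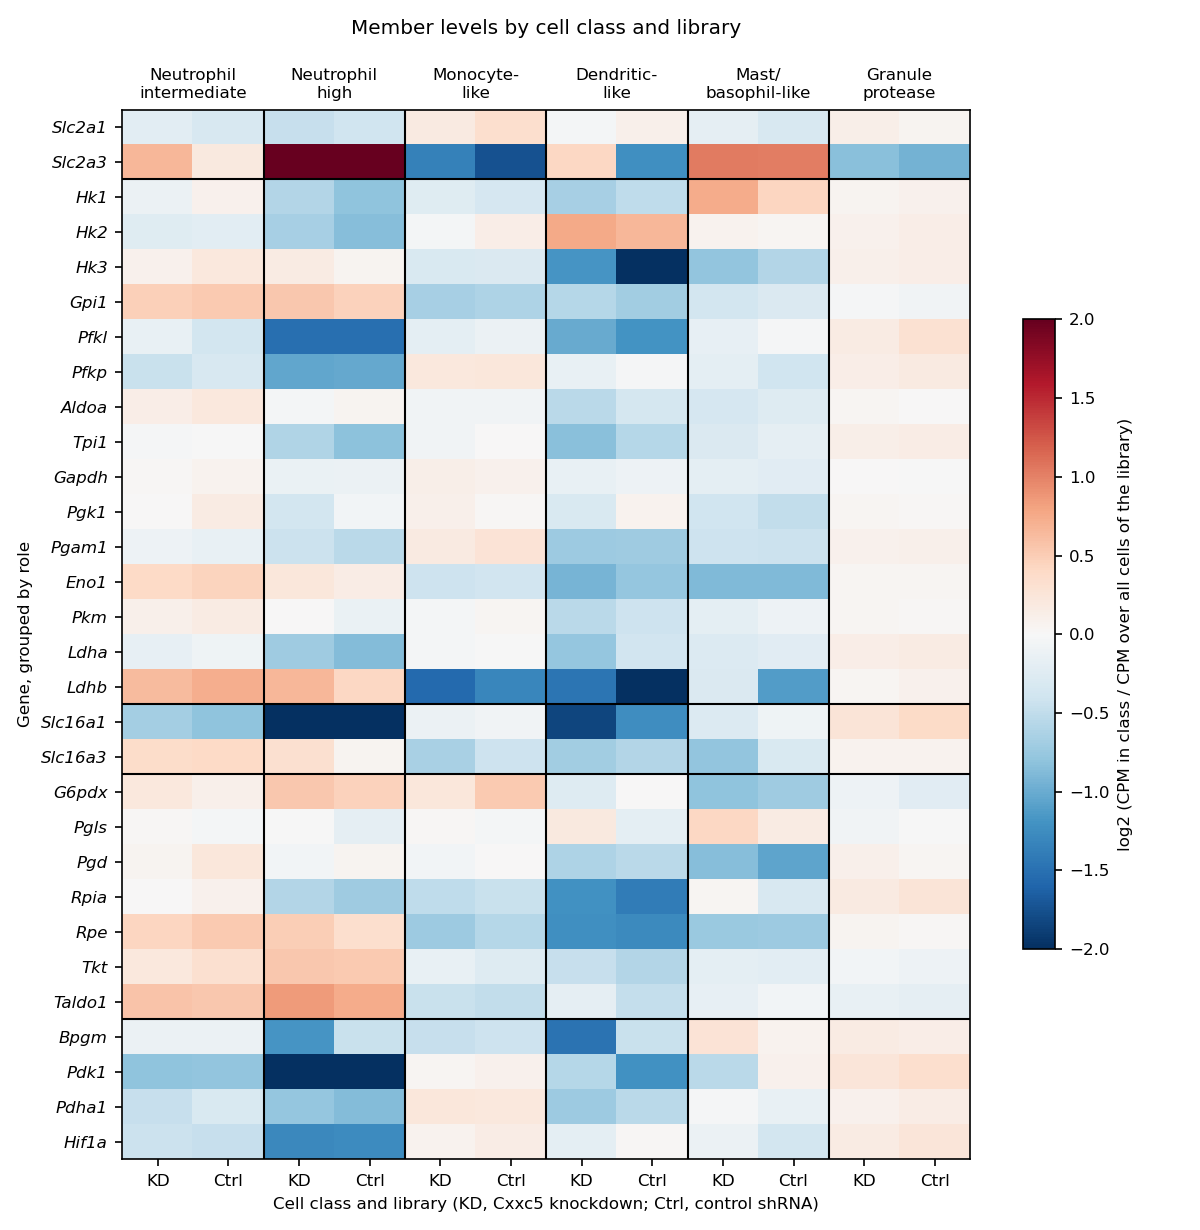
Each square is the log2 ratio of a gene's CPM in a cell class to its CPM over all cells of the same library, for 30 genes grouped by role, with the knockdown (KD) column left of the control (Ctrl) column in each class and colours cut at 2 and -2. Slc2a3, Taldo1 and Tkt are highest in neutrophil-high cells in both libraries, and Slc16a1 and Pdk1 are lowest there; Pfkm and Aldoc, below 10 CPM in both libraries, are not drawn.

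The pair of glucose transporters differed in where they were found. Slc2a3, which encodes GLUT3 (ENSMUSG00000003153, chromosome 6, 122727809 to 122801640, minus strand, GRCm38), had 38.2 CPM in knockdown and 31.4 CPM in control neutrophil-high cells, against 4.49 and 3.34 CPM in granule-protease cells. It was 8.49-fold higher in the knockdown and 9.41-fold higher in the control library. In mast cell/basophil-like cells it was also at least 1.5-fold above granule-protease cells, at 16.6 CPM in knockdown and 13.1 CPM in control cells. With each cell thinned to 5000 UMIs, a Slc2a3 UMI was found in 17.6% of 329 knockdown and 12.98% of 262 control neutrophil-high cells, against 2.05% of 2978 and 1.31% of 1217 granule-protease cells. Monocyte-like cells, where its level was lowest, gave 1.54% of 518 knockdown and 1.32% of 379 control cells, a share close to that of granule-protease cells. Unthinned shares were 25.4% of knockdown and 30.1% of control neutrophil-high cells. Slc2a1, which encodes GLUT1, had its highest level in monocyte-like cells, at 23.1 CPM in knockdown and 23.9 CPM in control cells. It was lowest in neutrophil-high cells, at 14.8 and 14.3 CPM, but its counting intervals in monocyte-like cells (19.4 to 27.3 CPM in the knockdown library) overlapped those of granule-protease cells (20.6 to 23.7 CPM).

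Each of the 3 hexokinase genes, whose enzymes trap glucose as glucose 6-phosphate, followed another order of classes. Hk1 was highest in mast cell/basophil-like cells, at 73.2 CPM in knockdown and 60.04 CPM in control cells, against 45.4 and 47.0 CPM in granule-protease cells. Hk2 was highest in dendritic-like cells, at 111 CPM in knockdown cells (86.6 to 139 CPM) and 103 CPM in control cells (84.6 to 124 CPM), against 70.0 and 70.8 CPM in granule-protease cells. It was lowest in neutrophil-high cells, at 41.6 CPM in knockdown and 35.7 CPM in control cells. Hk3, a hexokinase gene of myeloid cells, was about as high in neutrophil-high cells (66.2 CPM in knockdown and 61.9 CPM in control cells) as in granule-protease cells (63.9 and 64.7 CPM). It was lowest in dendritic-like cells, at 26.1 and 10.1 CPM, from 17 and 11 UMIs. Dendritic-like cells thus held the highest Hk2 and the lowest Hk3 level in both libraries.

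The steps down to the aldolase reaction divided in the same neutrophil-high cells. Gpi1, whose enzyme interconverts glucose 6-phosphate and fructose 6-phosphate at the meeting point with the pentose phosphate pathway, had 694 CPM in knockdown and 621 CPM in control neutrophil-high cells, against 469 and 433 CPM in granule-protease cells. The phosphofructokinase genes, of the committing step of glycolysis, were lower there. Pfkl had 21.8 CPM in knockdown and 20.0 CPM in control neutrophil-high cells, against 69.4 and 69.6 CPM in granule-protease cells, log2 ratios of -1.67 and -1.80. Pfkp had 34.7 CPM in knockdown and 32.2 CPM in control neutrophil-high cells, against 78.4 and 74.0 CPM. Both were still at least 1.5-fold lower without the dominant genes in the totals, and Gpi1 was then at least 1.5-fold higher. The third phosphofructokinase gene, Pfkm, and the aldolase gene Aldoc were below 10 CPM in both libraries over all cells. Aldoa, another aldolase gene, was highest in neutrophil-intermediate cells, at 1071 CPM in knockdown and 1025 CPM in control cells.

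In the later steps of glycolysis, Tpi1 and Ldha were at least 1.5-fold lower in neutrophil-high cells in both libraries, and the other genes were not. Without the dominant genes in the totals Ldha was still so (-0.61 in the knockdown and -0.80 in the control library), and Tpi1 was not (-0.48 and -0.73). Tpi1, the gene of triose-phosphate isomerase (ENSMUSG00000023456, chromosome 6, 124810586 to 124814296, minus strand), had 352 CPM in knockdown and 239 CPM in control neutrophil-high cells, against 579 and 468 CPM in granule-protease cells. Ldha, of the lactate dehydrogenase subunit that favours lactate formation, had 539 CPM in knockdown and 412 CPM in control neutrophil-high cells, against 969 and 846 CPM, log2 ratios of -0.85 and -1.04. Eno1 (enolase) and Pkm (pyruvate kinase) were highest in neutrophil-intermediate cells, at 800 and 927 CPM in the knockdown library and 807 and 900 CPM in the control library. Pgam1 (phosphoglycerate mutase) was highest in monocyte-like cells, at 920 CPM in knockdown and 866 CPM in control cells. Gapdh, of the dehydrogenase step that makes NADH, varied least among the glycolysis genes above 10 CPM: its highest class, monocyte-like cells, was 1.24-fold above its lowest, mast cell/basophil-like cells, in the knockdown and in the control library. Pgk1 (phosphoglycerate kinase) ranged from 25.9 to 36.6 CPM in the knockdown and from 19.3 to 30.3 CPM in the control library. Ldhb, the heart-type subunit gene, was lower by at least 1.5-fold in monocyte-like cells, at 4.33 CPM in knockdown and 5.49 CPM in control cells, against 13.1 and 14.4 CPM in granule-protease cells. The 3′ end of Gapdh is near-identical to that of 50 other annotated genes or pseudogenes, 2 of them in the matrices. That of Eno1 is near-identical to 2, 1 of them in the matrices. Counts of Gapdh and Eno1 may be split with the copies in the matrices or pooled with the others. Gpi1, Pkm, Ldha and Ldhb each had 1 or 2 such copies, 0 of them in the matrices.

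The lactate transporter genes parted company in neutrophil-high cells, where Slc16a1 was far below its level in granule-protease cells and Slc16a3 was above its own in the knockdown library and within counting error of it in the control library (log2 ratios of 0.26 and -0.006). Slc16a1, which encodes MCT1 (ENSMUSG00000032902, chromosome 3, 104638668 to 104658462, plus strand), had 5.36 CPM in knockdown and 3.42 CPM in control neutrophil-high cells, against 52.3 and 45.2 CPM in granule-protease cells. The log2 ratios were -3.29 and -3.72. A Slc16a1 UMI was found, at 5000 UMIs per cell, in 2.74% of 329 knockdown and 1.53% of 262 control neutrophil-high cells, against 22.9% of 2978 and 19.0% of 1217 granule-protease cells. Slc16a3, which encodes MCT4 (ENSMUSG00000025161, chromosome 11, 120948480 to 120960868, plus strand), had 59.6 CPM in knockdown and 37.4 CPM in control neutrophil-high cells, against 49.7 and 37.5 CPM in granule-protease cells. In neutrophil-intermediate cells it was highest, at 61.5 CPM in knockdown cells (56.6 to 66.7 CPM) and 47.4 CPM in control cells (43.0 to 52.1 CPM). In both libraries that interval overlapped the one of neutrophil-high cells (51.4 to 68.7 CPM in knockdown and 31.3 to 44.4 CPM in control cells). MCT4 is the carrier usually tied to lactate export from glycolytic cells, and MCT1 works in either direction.

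Of the pentose phosphate genes, Taldo1 was raised most in neutrophil-high over granule-protease cells in both libraries. Tkt, of the same non-oxidative arm, and G6pdx, of the oxidative arm, were also higher. Taldo1 (transaldolase; ENSMUSG00000025503, chromosome 7, 141392199 to 141402968, plus strand) had 779 CPM in knockdown and 804 CPM in control neutrophil-high cells, against 388 and 422 CPM in granule-protease cells, 2.01-fold and 1.90-fold higher. Tkt (transketolase) had 549 CPM in knockdown and 531 CPM in control neutrophil-high cells, against 364 and 344 CPM. G6pdx, whose enzyme opens the oxidative arm and makes its first NADPH, had 87.7 CPM in knockdown and 94.2 CPM in control neutrophil-high cells, against 56.6 and 58.3 CPM. These 3 of the 7 genes were at least 1.5-fold higher there in both libraries. Rpia, of the isomerase that makes ribose 5-phosphate for nucleotides, was lower, at 74.1 CPM in knockdown and 61.6 CPM in control neutrophil-high cells, against 125 and 121 CPM. Its log2 ratios of -0.76 and -0.98 were -0.52 and -0.74 without the dominant genes in the totals, no longer 1.5-fold lower in both libraries. Rpe, of the epimerase of the same arm, had 90.5 CPM in knockdown and 81.1 CPM in control neutrophil-high cells, against 66.9 and 64.8 CPM. Pgd, of the second NADPH-making enzyme, did not go with G6pdx, at 167 and 190 CPM in neutrophil-high cells, against 186 and 188 CPM. Pgls (6-phosphogluconolactonase) was highest in mast cell/basophil-like cells, at 371 CPM in knockdown and 322 CPM in control cells.

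Of the side branch and control genes, Pdk1 and Hif1a were low in neutrophil-high cells. Pdk1, of a kinase that holds back pyruvate dehydrogenase, had 6.31 CPM in knockdown and 3.14 CPM in control neutrophil-high cells, against 42.8 and 40.03 CPM in granule-protease cells. Hif1a had 23.7 CPM in both knockdown and control neutrophil-high cells, against 65.2 and 67.1 CPM. Pdha1, of the pyruvate dehydrogenase that Pdk1 acts on, had 58.0 CPM in knockdown and 52.8 CPM in control neutrophil-high cells, against 106 CPM in granule-protease cells of either library. Bpgm, which makes 2,3-bisphosphoglycerate, was at 5.68 and 8.28 CPM, against 14.3 and 12.2 CPM.

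The other classes differed less from granule-protease cells, except the dendritic-like cells. Those had 14 of 29 measured genes at least 1.5-fold lower and 0 higher in both libraries, against 19.4% lower and 13.3% higher among 7067 genes, and held 650518 UMIs in all in the knockdown library. Among the 14 were Eno1, at 318 CPM in knockdown and 348 CPM in control dendritic-like cells, against 627 and 608 CPM, and both lactate transporter genes. Monocyte-like cells had 3 lower (Ldhb, Rpia and Rpe) and 0 higher of 29, against 4.15% lower and 5.41% higher among all genes. Mast cell/basophil-like cells had 1 higher (Slc2a3) and 4 lower (Hk3, Eno1, Pgd and Rpe) of 30, against 7.92% higher and 7.42% lower. Neutrophil-intermediate cells had 2 higher (Ldhb and Taldo1) and 3 lower (Slc16a1, Pdk1 and Hif1a) of 29, against 4.86% higher and 11.9% lower. Without the dominant genes in the totals, the counts were 0 higher and 12 lower in dendritic-like cells (13.4% and 18.9% of all genes), 0 and 3 in monocyte-like cells (5.54% and 4.22%), 1 and 4 in mast cell/basophil-like cells (7.93% and 7.65%), and 2 and 2 in neutrophil-intermediate cells (5.68% and 9.42%).

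The granule-protease, neutrophil-intermediate and neutrophil-high cells were also ordered by neutrophil marker UMIs per 10000, in 7 bins from under 5 to 2000 and above. Slc16a1 ran down through the bins as 57.5, 55.4, 40.1, 29.9, 18.9, 8.12 and 2.07 CPM in the knockdown library and as 52.3, 43.9, 37.2, 22.4, 12.1, 5.63 and 0.645 CPM in the control library. The last bins held 3 and 1 Slc16a1 UMIs, and the log2 ratio of last to first bin was -4.79 (-7.07 to -3.24) in the knockdown and -6.34 (-11.65 to -3.85) in the control library. Slc2a3 ran up, as 4.49, 4.05, 5.08, 10.6, 20.2, 32.5 and 44.9 CPM in the knockdown library and as 4.11, 3.28, 2.35, 4.78, 15.2, 26.6 and 37.4 CPM in the control library. Slc2a3 thus stayed near its first level through the first 3 bins and stood above it in both libraries from the fifth bin on, while Slc16a1 was lower in each bin than in the one before it.

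Taldo1 climbed from the first bin on and peaked in the bin from 1000 to 2000, at 804 CPM in knockdown and 870 CPM in control cells. In the first bin it had 340 CPM in knockdown and 373 CPM in control cells, and in the last 749 and 720 CPM. Tkt and G6pdx were higher in the last than in the first bin in both libraries, with log2 ratios of 0.72 for Tkt and 0.86 for G6pdx in the knockdown library and of 0.74 and 0.82 in the control library. Pdk1, Pfkl, Hif1a and Ldha ran down in both libraries, with log2 ratios of last to first bin of -3.55, -2.37, -1.92 and -1.03 in the knockdown library and of -3.79, -2.21, -1.49 and -1.26 in the control library. Hk3 stayed between 55.2 and 69.8 CPM in the knockdown and between 59.4 and 76.0 CPM in the control library. Median UMIs per cell also ran down through the bins, from 11397 to 6857 in the knockdown and from 21449.5 to 9866.5 in the control library. The dominant genes' share went up, from 15.9% to 32.7% in the knockdown and from 15.9% to 32.4% in the control library, and so did the summed level of 12 G2/M genes, from 1505 to 2177 CPM in the knockdown and from 1477 to 1846 CPM in the control library. With the dominant genes out of the totals, the log2 ratios were -0.71 for Ldha, 1.46 for Taldo1 and -2.05 for Pfkl in the knockdown library and -0.94, 1.26 and -1.89 in the control library; the part of depth and of cell cycle stage was not tested.

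**Figure D2:**
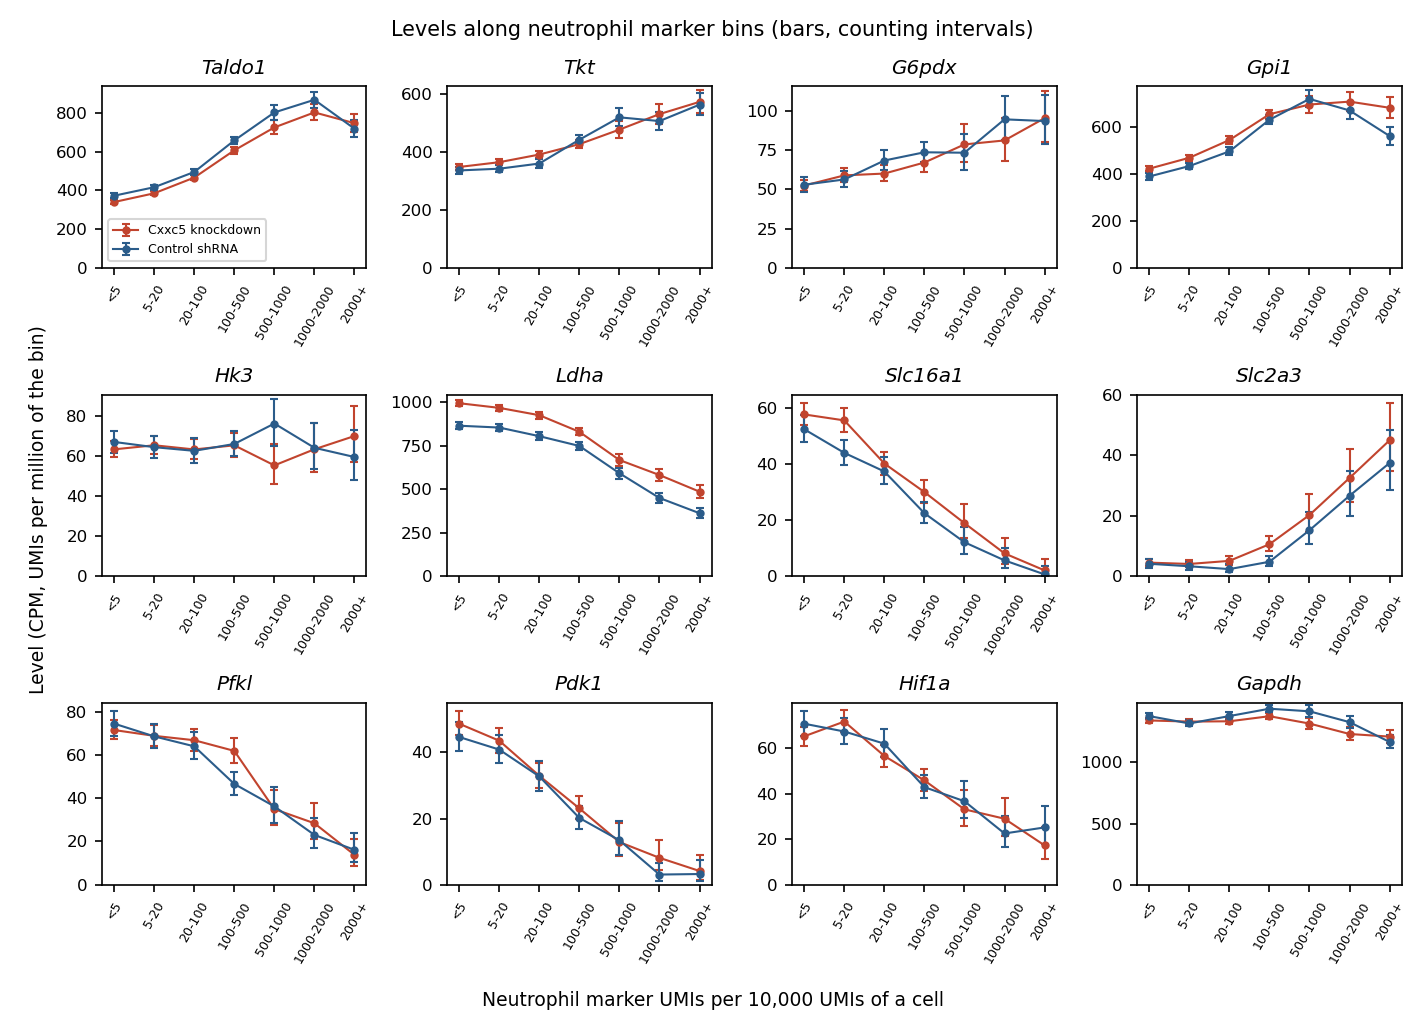
The level (CPM, linear axes from 0) of 12 genes is drawn over 7 bins of neutrophil marker UMIs per 10000 UMIs of a cell, for the knockdown library (red) and the control library (blue), with bars for 95% counting intervals. Slc16a1, Pdk1, Pfkl, Hif1a and Ldha run down in both libraries, Slc2a3, Taldo1, Tkt and G6pdx run up, and the Ldha line of the knockdown library lies above that of the control library in each bin.

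Between the libraries, the differences were smaller than those between classes. Over all cells, 29 of the 32 genes reached 10 CPM in a library, and 4 of them were at least 1.2-fold higher in the knockdown library, against 3.8% of 6743 genes. None of the 29 was at least 1.2-fold lower, against 4.72% of all genes. Because the members were chosen with earlier results of these data known, these counts are a description and no test of enrichment. The 4 were Tpi1, Pgk1, Slc16a1 and Slc16a3, 2 glycolysis genes and both lactate transporter genes. Tpi1 had 534 CPM in knockdown and 421 CPM in control cells, a log2 ratio of 0.35 (0.32 to 0.37). Pgk1 had 34.1 CPM in knockdown and 27.2 CPM in control cells, a log2 ratio of 0.33 (0.23 to 0.43). The lactate transporter genes were close in size of difference: Slc16a1 had 43.9 CPM in knockdown and 34.6 CPM in control cells (0.34, 0.26 to 0.43), and Slc16a3 had 47.5 CPM in knockdown and 35.8 CPM in control cells (0.41, 0.32 to 0.49). The 10 cells richest in each held 0.777% to 2.24% of its UMIs in the knockdown and 1.62% to 4.08% in the control library. The threshold cut through a run of values: with each cell thinned to 5000 UMIs, Ldha and Bpgm passed it (0.35 and 0.42) and Pgk1 did not (0.17), and with the class shares of the control library Slc16a1 was at 0.26.

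The other measured glycolysis genes lay within 1.2-fold, most of them on the higher side. Ldha had 886 CPM in knockdown and 751 CPM in control cells, a log2 ratio of 0.24 (0.22 to 0.26), and Pgam1 had 809 and 716 CPM, a ratio of 0.18 (0.16 to 0.20). Aldoa, Pkm, Pfkl, Pfkp, Gpi1, Eno1, Hk2 and Hk3 lay between 0.00 and 0.13. Gapdh had 1336 CPM in knockdown and 1361 CPM in control cells, a log2 ratio of -0.03 that turned to 0.01 when cells were thinned or weighted equally. The median over the 15 measured glycolysis genes was 0.10, and 12 of the 15 were above 0. The median of all 6743 genes was 0.03, so most of all genes were above 0 too. Hk2 (0.02) and Hk3 (0.002) were above 0 but below that median. Hk1 was at -0.02 (-0.11 to 0.06) and Ldhb at -0.09 (-0.24 to 0.06).

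The pentose phosphate genes did not share this side. Their median log2 ratio was -0.05, with 3 of 7 above 0 and 0 past 1.2-fold either way. G6pdx had 60.6 CPM in knockdown and 68.6 CPM in control cells, a log2 ratio of -0.18 (-0.25 to -0.11), and Taldo1 had 430 and 479 CPM, a ratio of -0.15 (-0.18 to -0.13). Pgd and Pgls were at -0.07 (-0.11 to -0.03) and -0.05 (-0.09 to -0.02), so over all cells the 3 genes of the oxidative arm had intervals below 0. Rpia was at 0.13 (0.08 to 0.18), Tkt at 0.04 (0.01 to 0.07) and Rpe at 0.01 (-0.06 to 0.08).

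Among the rest, Slc2a1 was at 0.12 (-0.00 to 0.24), Bpgm at 0.19 (0.04 to 0.35), Pdk1 at 0.19 (0.10 to 0.29), Pdha1 at 0.05 (-0.00 to 0.11) and Hif1a at 0.03 (-0.04 to 0.11). The 3 genes below 10 CPM were Slc2a3, with 8.05 CPM in knockdown and 6.45 CPM in control cells (0.32, 0.11 to 0.53), Aldoc, with 6.70 and 4.91 CPM (0.45, 0.22 to 0.68), and Pfkm, with 3.66 and 3.55 CPM (0.04, -0.25 to 0.33). Neutrophil-high cells were a smaller share and granule-protease cells a larger share of the knockdown library, so the comparison was repeated within classes.

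**Figure D3:**
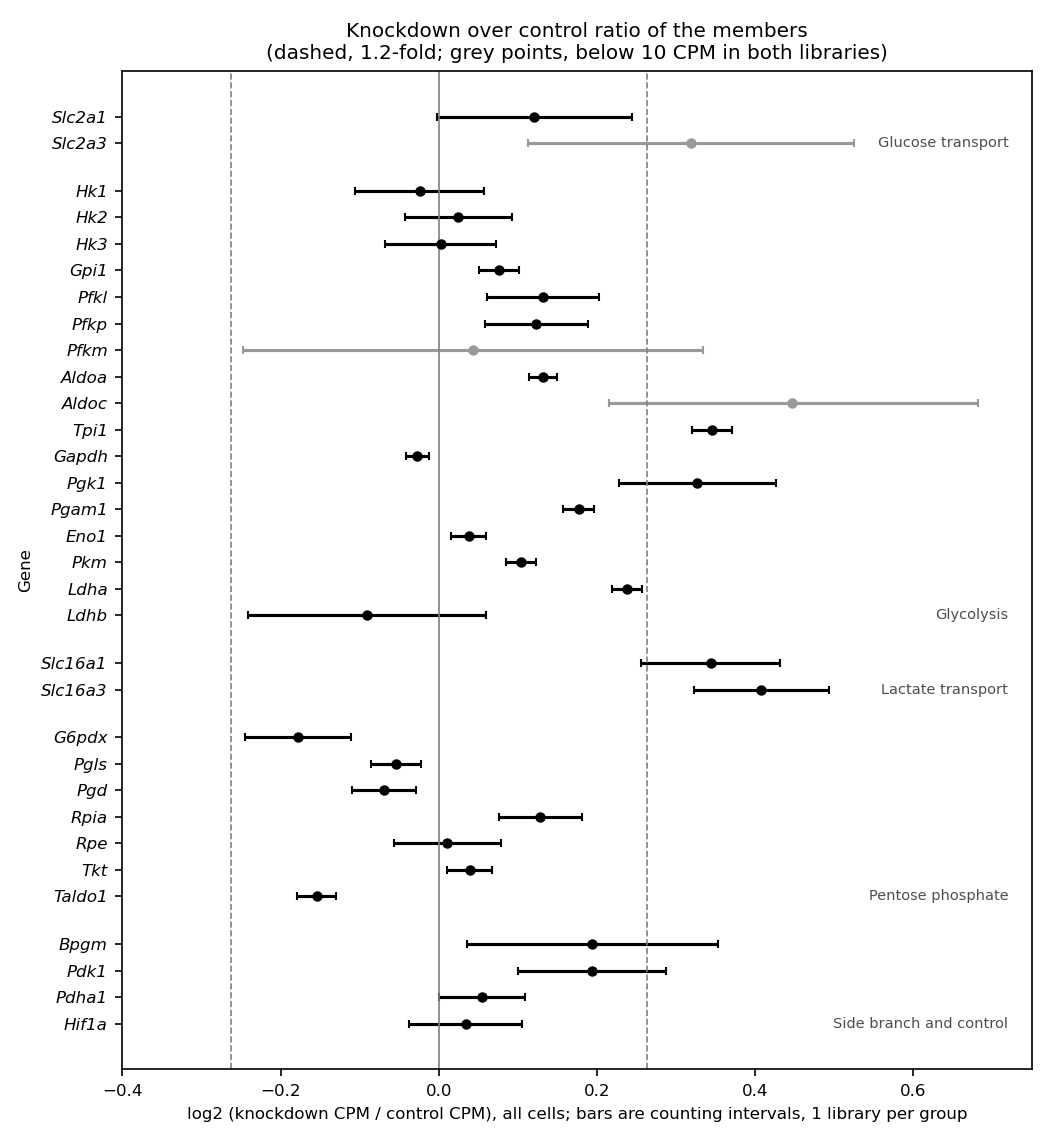
The log2 ratio of knockdown CPM to control CPM over all cells is drawn for each of the 32 genes by role, with bars for 95% counting intervals, dashed lines at 1.2-fold and grey for genes below 10 CPM in both libraries. Tpi1, Pgk1, Slc16a1 and Slc16a3 lie right of the upper line, and G6pdx and Taldo1 lie farthest left, inside the lower line.

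Within 5 classes of at least 100 cells in each library, Tpi1, Ldha and Pgam1 were higher in knockdown than in control cells in every class, each with a counting interval above 0 in 5 of 5. How many of all genes lay on the same side in every class is not given. Such counts, here and below, are therefore not read as particular to these genes, and counting intervals are narrow where UMIs are many. Tpi1 had 579 CPM in knockdown and 468 CPM in control granule-protease cells, and its log2 ratio ranged from 0.22 in mast cell/basophil-like cells to 0.55 (0.42 to 0.69) in neutrophil-high cells. Ldha ranged from 0.16 in neutrophil-intermediate cells to 0.39 in neutrophil-high cells, and Pgam1 from 0.09 in monocyte-like cells to 0.28 in neutrophil-high cells. Whether the ratio differs between classes was not tested, with 1 library per group. Pgk1 was above 0 in 5 of 5 classes, from 0.01 in neutrophil-high to 0.43 in mast cell/basophil-like cells, with an interval above 0 in 2 of them.

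Slc16a3 was at least 1.2-fold higher in knockdown neutrophil-high, neutrophil-intermediate and granule-protease cells. It had 59.6 CPM in knockdown and 37.4 CPM in control neutrophil-high cells, a log2 ratio of 0.67 (0.34 to 1.01). In neutrophil-intermediate cells it had 61.5 and 47.4 CPM (0.38, 0.19 to 0.56), and in granule-protease cells 49.7 and 37.5 CPM (0.41, 0.29 to 0.52). In monocyte-like and mast cell/basophil-like cells it was at 0.17 (-0.14 to 0.47) and -0.08 (-0.69 to 0.54). Slc16a1 was above 0 in the 4 classes where it was measured, at 0.47 (0.18 to 0.75) in neutrophil-intermediate, 0.30 (0.03 to 0.57) in monocyte-like, 0.16 (-0.39 to 0.73) in mast cell/basophil-like and 0.21 (0.10 to 0.32) in granule-protease cells. With gate levels doubled, Slc16a1 was at -0.56 in mast cell/basophil-like cells, and Slc16a3 at -0.01 in monocyte-like and 0.16 in mast cell/basophil-like cells.

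Gapdh lay between -0.07 and 0.00 in the 5 classes, and at 0.06 in neutrophil-high cells with gate levels doubled. G6pdx was below 0 in 5 of 5 and lowest in monocyte-like cells, with 71.2 CPM in knockdown and 98.6 CPM in control cells, a log2 ratio of -0.47 (-0.65 to -0.29). Taldo1 was below 0 in 5 of 5, from -0.27 (-0.42 to -0.11) in mast cell/basophil-like to -0.04 (-0.12 to 0.03) in neutrophil-high cells. With gate levels doubled, both were above 0 in neutrophil-high cells, G6pdx at 0.03 and Taldo1 at 0.07. Pgd had an interval below 0 in 3 classes, lowest in neutrophil-intermediate cells, with 181 CPM in knockdown and 214 CPM in control cells (-0.24, -0.34 to -0.15). In mast cell/basophil-like cells Pgd was at 0.14 (-0.19 to 0.48). Pgls was above 0 in 3 of 5 classes, highest in mast cell/basophil-like cells at 0.20 (0.03 to 0.37). Its interval lay below 0 only in granule-protease cells (-0.12, -0.16 to -0.07), so the oxidative arm was not lower as a whole within each class. Rpia was above 0 in 5 of 5 classes, from 0.05 in granule-protease to 0.50 in mast cell/basophil-like cells, and at -0.04 in monocyte-like cells with gate levels doubled.

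Counts of genes past 1.2-fold are set beside the share of all genes past it in the same class. In neutrophil-intermediate cells 5 of 30 measured genes were higher and 0 lower, against 9.04% higher and 9.07% lower among all genes. These were Tpi1, both lactate transporter genes, Slc2a3, with 12.8 CPM in knockdown and 7.39 CPM in control cells (0.79, 0.35 to 1.247), and Pfkl, with 55.7 and 44.0 CPM (0.34, 0.15 to 0.53). In neutrophil-high cells 6 of 27 were higher (Slc2a3, Tpi1, Pgam1, Ldha, Slc16a3 and Rpia) and 0 lower, against 23.7% and 16.6%. In monocyte-like cells 3 of 27 were higher (Tpi1, Pgk1 and Slc16a1) and 1, G6pdx, was lower, against 8.04% and 10.1%. In mast cell/basophil-like cells 8 of 31 were higher (Slc2a3, Hk1, Pfkp, Pgk1, Ldhb, Rpia, Bpgm and Hif1a) and 4 lower (Aldoc, G6pdx, Taldo1 and Pdk1), against 24.8% and 19.3%; the lowest ratio, that of Aldoc at -1.15, rested on 9 knockdown and 15 control UMIs. In granule-protease cells 3 of 29 were higher (Tpi1, Pgk1 and Slc16a3) and 0 lower, against 3.56% and 3.57%. The shares of members on the higher side in neutrophil-high and mast cell/basophil-like cells were thus near those of all genes. The summed neutrophil markers in the same classes were 205618 CPM in knockdown and 198923 CPM in control neutrophil-high cells, 34154 and 36115 CPM in neutrophil-intermediate cells, and 1741 and 1724 CPM in granule-protease cells.

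In the neutrophil marker bins, Tpi1, Pgam1, Ldha and both lactate transporter genes had the higher level in the knockdown library. The bins hold the same granule-protease, neutrophil-intermediate and neutrophil-high cells as the classes, so they are no separate check. Tpi1, Pgam1 and Ldha were each higher in 7 of 7 bins, and in all 7 the counting intervals of the 2 libraries did not overlap. Slc16a3 was higher in 7 of 7 bins, with intervals apart in 5, and Slc16a1 in 7 of 7, with intervals apart in 1. In the last bin Slc16a3 had 54.6 CPM in knockdown and 30.3 CPM in control cells. Pkm was also higher in 7 of 7 bins, with intervals apart in 5. Taldo1 was lower in 6 of 7 bins, with intervals apart in 4, and Gapdh lower in 5 of 7, with intervals apart in 2. The same counts over all genes are not given, so these are not read as particular to the members.

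**Figure D4:**
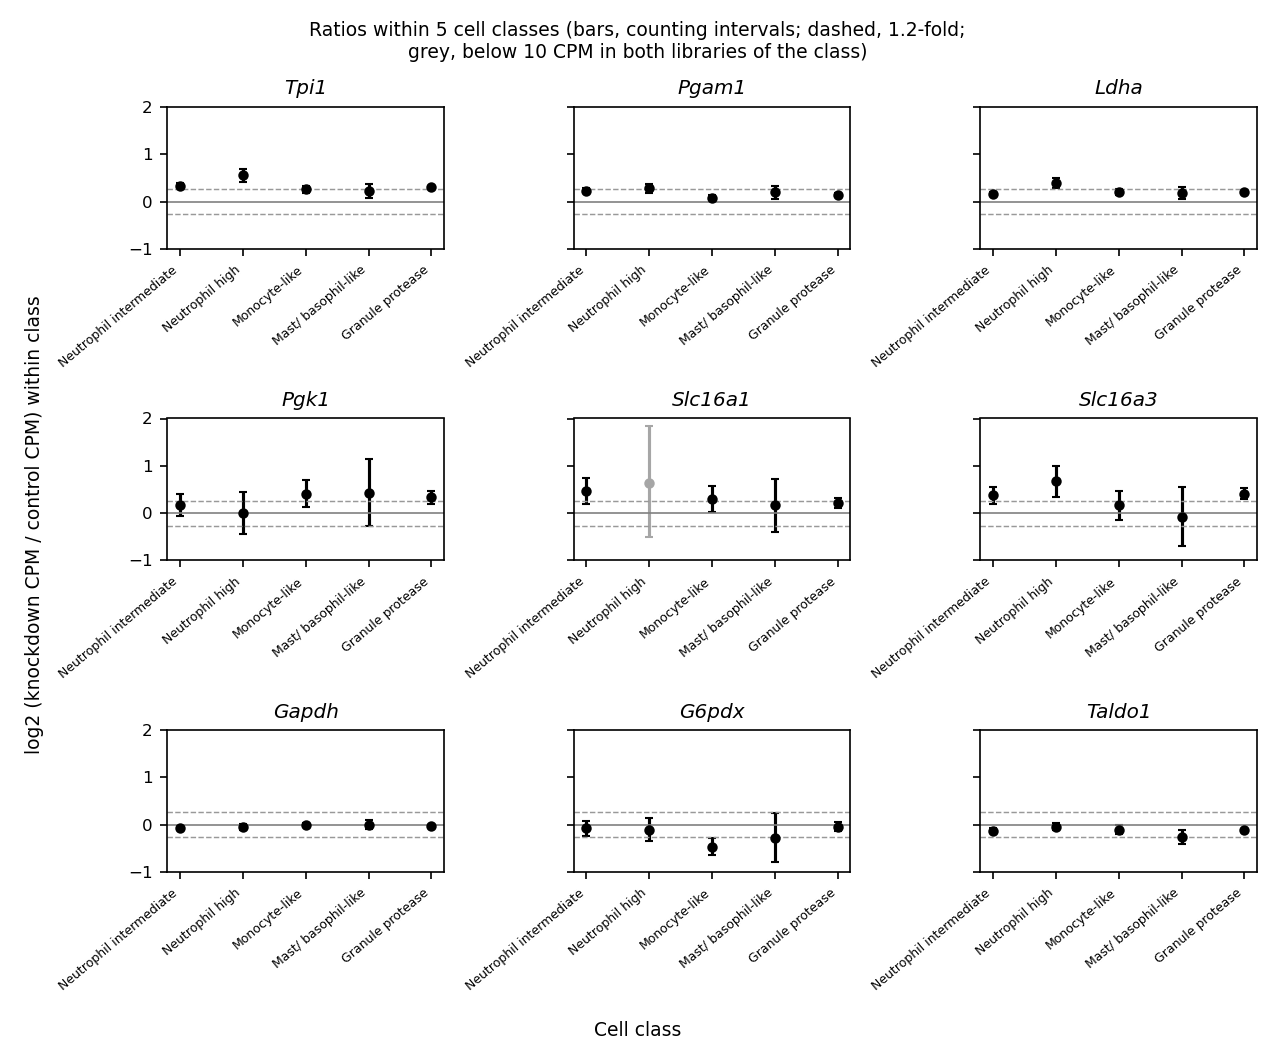
The log2 ratio of knockdown CPM to control CPM is drawn for 9 genes within 5 cell classes, with bars for 95% counting intervals, dashed lines at 1.2-fold and grey where both libraries of the class were below 10 CPM. Tpi1, Pgam1 and Ldha lie above 0 in each class, Gapdh lies between -0.07 and 0.00, and G6pdx is lowest in monocyte-like cells.

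Other genes around the pathway were set beside the same shares of all genes. These lists, the HIF-1α targets below included, were also chosen with earlier results known, so their counts are descriptions only. Of 39 other genes of glucose and pyruvate use, 16 were measured, 1 was at least 1.2-fold higher and 0 lower, against 3.8% higher and 4.72% lower of all genes, so this count was near that of all genes. Their median log2 ratio was 0.05, against 0.03 for all genes. The higher one was Pfkfb3, of an enzyme that makes the phosphofructokinase activator fructose 2,6-bisphosphate, with 20.7 CPM in knockdown and 16.6 CPM in control cells (0.32, 0.19 to 0.45). Next was Slc37a4, the glucose 6-phosphate carrier of the endoplasmic reticulum, at 0.15 (-0.00 to 0.30). Lowest were Mpc2 at -0.24 (-0.27 to -0.20) and Mpc1 at -0.14 (-0.17 to -0.11), the subunits of the mitochondrial pyruvate carrier. Mpc2 had 232 CPM in knockdown and 274 CPM in control cells, and Mpc1 had 335 and 368 CPM. So both carrier subunit genes lay on the lower side, while the lactate transporter genes lay on the higher side.

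Of 7 other pentose phosphate genes, 4 were measured and 0 lay past 1.2-fold, against 3.8% higher and 4.72% lower of all genes; with so few genes nothing is read from this count. Prps1, of an enzyme that activates ribose 5-phosphate for nucleotide synthesis, was highest at 0.22 (0.15 to 0.28) and its paralog Prps2 next at 0.11 (0.00 to 0.23). The lowest were Rbks (ribokinase) at 0.08 and H6pd, of the endoplasmic reticulum's own oxidative branch, at 0.09. Of 13 genes of other NADPH sources, 9 were measured and 0 lay past 1.2-fold, against the same 3.8% and 4.72%. Nadk2 (mitochondrial NAD kinase) at 0.25 (0.15 to 0.35) and Mthfd2 (a mitochondrial folate enzyme) at 0.15 (0.10 to 0.20) were highest, and Nadk (cytosolic NAD kinase) at -0.15 (-0.21 to -0.09) and Idh1 (cytosolic isocitrate dehydrogenase) at -0.14 (-0.20 to -0.07) lowest.

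Of 17 genes known as HIF-1α targets outside glycolysis, 9 were measured, 2 were at least 1.2-fold higher and 0 lower, against 3.8% higher and 4.72% lower of all genes. Bnip3, of a protein that marks mitochondria for removal, had 30.2 CPM in knockdown and 21.5 CPM in control cells, a log2 ratio of 0.49 (0.38 to 0.60), and P4ha1, of a collagen prolyl hydroxylase, had 24.4 and 20.0 CPM (0.28, 0.17 to 0.40). Bnip3l, the paralog of Bnip3, lay on the other side, with 104 CPM in knockdown and 123 CPM in control cells (-0.24, -0.29 to -0.19), and Narf was at -0.11 (-0.28 to 0.07). The median of the 9 was 0.12, against 0.03 for all genes, and 6 of them were above 0.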

How the data were processed

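Single-cell RNA was measured in 2 libraries, 1 per group. The authors deposited UMI counts for each gene in each barcode of 10x Genomics 3′ libraries. Per the submitters' processing notes, these came from Cell Ranger 2.1.1 and the mm10 build; the annotation release is not given in the sources used here.

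Barcodes needed 500 or more genes and no more than 10% mitochondrial UMIs, and 11 knockdown and 13 control barcodes failed. Scrublet (scanpy 1.11.5) called 5 knockdown and 1 control cells, too few to rely on, so doublets were kept. Cells were gated by marker UMIs per 10000: neutrophil 1000 (high) or 100 (intermediate), granule-protease 100, mast cell/basophil 10, monocyte 5 and dendritic 5. Cells over the monocyte gate and also over either the dendritic or the mast cell/basophil gate were put in the latter class. The granule-protease gate was applied only to cells below every other gate. Cells over any other combination of gates (22 knockdown, 7 control) or none (547 and 275) entered no class. Gate levels were chosen after seeing the distributions, and 708 knockdown and 353 control cells lay between 20% below and 25% above the granule-protease level, the most of any gate.

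CPM was computed from summed UMIs with exact Poisson intervals, ratios with exact binomial intervals from the split of UMIs (scipy 1.17.1) and shares of cells with Clopper-Pearson intervals. They treat UMIs as independent and leave out spread between cells, mice, infections and cultures. With 1 library per group no test was made and no p-value is given. Between libraries, genes of at least 10 CPM in either were compared at 1.2-fold, in classes of at least 100 cells; between classes at 1.5-fold in both libraries. To compare shares, cells were thinned to 5000 UMIs, leaving out 641 knockdown and 115 control cells. Arithmetic was tested on simulated counts.

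The members and gene lists were chosen with earlier results of these data known. Named are all 32 members, and of each other list the 2 highest and 2 lowest ratios among measured genes. Genes were located in GENCODE M21, and 3′ ends (500 bases, at least 100 aligned at 98% identity) were compared with BLAST 2.17.0. Alternatives covered the minimum level, scaling, thinning, cell weights, class shares, doublets, cell filter and gates; those on gates and scaling within classes were added after seeing the data.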

Additional observations from a re-analysis of the deposited data

How the results depend on the processing

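Over all cells, 4 members were at least 1.2-fold higher in the knockdown library; the count was 1 (Tpi1) at a minimum of 50 CPM, 6 with no minimum, 5 with thinned cells and 5 with each cell weighted the same, and 0 members were lower under each of these. The glycolysis median log2 ratio (0.10) was 0.17 with thinned cells and 0.16 with each cell weighted the same. The pentose phosphate median (-0.05) was -0.086 with the median ratio of all genes set to 1 and -0.016 with each cell weighted the same. Slc16a1 (0.34) was 0.26 with the control library's class shares. For neutrophil-high over granule-protease cells, the log2 ratio of summed glycolysis (-0.20 in the knockdown, -0.24 in the control library) was -0.30 and -0.40 with gates doubled, -0.11 and -0.092 with gates halved, 0.035 and -0.0037 without dominant genes, and -0.30 in the control library with each cell weighted the same. That of summed pentose phosphate genes (0.48 and 0.44) was 0.33 and 0.17 with gates doubled, 0.71 and 0.67 without dominant genes, and, in the control library, 0.49 with gates halved and 0.39 with each cell weighted the same. The cause was not tested, except that leaving out dominant genes raises all levels of a class by one factor. Of the other values, 51 on groups of genes, the counts and the lactate transporter genes over all cells stayed within their counting interval (counts within 1.5 times); for other single genes 566 did and 76 did not. No paired analysis was possible because each group had 1 library. Counting error alone is covered by the intervals, and dendritic-like cells and genes below 10 CPM have the widest ones.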
